A study of Homo sapiens with 40 samples.

Results

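The secretory granule and exocytosis genes were followed as a group of 39 genes chosen by name from 19663 protein-coding genes, and were described by the histone mark H3K27ac and the DNA-binding protein CTCF at their start sites, by the enhancers listed for them, and by the places where the retinoblastoma protein Rb was listed as specific to senescent cells. For each gene, the H3K27ac peak and the CTCF peak with the highest mean count within 2 kb of a start site were taken, and enhancers were assigned to a gene when they lay in it or when it held the nearest start site within 100 kb. The rule names the genes, but it takes the peak of each gene by its measured mean count. The peaks of all genes were taken in the same way. The cells were EndoC-βH3, an established human pancreatic beta cell line derived from fetal pancreas, given as wild type in genotype, in which the immortalizing transgenes can be cut out by a recombinase that 4-hydroxytamoxifen (4-OHT) activates. Binding was measured by chromatin immunoprecipitation and sequencing (ChIP-seq). Senescent cells were those treated with 4-OHT for 3 weeks, and control cells had no such induction and are called non-senescent. H3K27ac and CTCF were each measured in 3 senescent and 3 non-senescent libraries, H3K4me1 and Rb in 2 and 2, and each library had its own input, 40 libraries in all. Both states are the same line, grown in the same medium, so that the comparison speaks of 1 line in culture.

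Beta cells keep insulin in dense-core granules. Granins and prohormone convertases load and process the cargo, Rab proteins and active zone scaffolds bring the granule to the plasma membrane, SNARE proteins fuse the membranes, and calcium-binding proteins such as synaptotagmins time the fusion to the calcium that enters when glucose is metabolized. H3K27ac marks active promoters and enhancers, CTCF anchors chromatin loops, and H3K4me1 together with H3K27ac away from promoters marks enhancers. The members were grouped by role into granule content and processing (10 genes), granule membrane (4), SNARE proteins and their regulators (8), calcium sensors (8), and Rab proteins and active zone (9). These names are labels. The calcium sensors take in the SYT genes, DOC2B, CADPS and CADPS2, whether or not each product binds calcium.

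The promoter values are the authors' mean over the 6 libraries of an antibody, after scaling by size factors, divided here by the width of the peak in kb. They hold both states together and give no spread between libraries, so that levels of genes are described without a test and no promoter is compared between senescent and non-senescent cells. If every count stood for 1 read, counting error alone would range from 0.372% to 10.0% of a member's mean for H3K27ac and from 1.91% to 13.2% for CTCF, which covers counting error only. Values are averages over a population of cells, in which fewer cells with a mark and less of the mark per cell cannot be told apart. The labelled cell type was checked against its markers: 14 of 14 beta cell markers had an H3K27ac peak at a start site, among them INS with 230.4 normalized counts per kb, PDX1 with 493 and MAFA with 49.5, as against 3 of 4 alpha cell, 2 of 2 delta cell, 1 of 4 acinar, 1 of 3 duct, 0 of 4 fibroblast, 0 of 3 endothelial and 1 of 3 leukocyte markers. Of all genes, 66.4% had such a peak. Levels overlapped between types. Markers with a peak had a median of 251 per kb for beta, 141 for alpha and 67.8 for delta cells. The 1 acinar marker with a peak had 298, the 1 leukocyte marker 238 and the 1 duct marker 122.

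To show the sequences that the regulatory signals sit on, promoters with a cyclic AMP response element and CTCF core motifs of the members were read out. The element, TGACGTCA, which binds factors that respond to cyclic AMP, was searched in RefSeq promoters of GRCh38.p14, each 300 bases long, which matched 27 of the 39 members with 45 start sites. It was found in 3 of these 45 (6.67%) and in 1.85% of all 35116 promoters. Its letters read the same on both strands. The 3 were those of CHGA, PCSK1 and VGF, whose protein products are granule cargo or cut it. Their 150 bases upstream of the start site are given 5′ to 3′ on the strand of the gene, with the element in capitals, which began 54, 77 and 79 bases before the start site in CHGA, PCSK1 and VGF.
CHGA, chr14:92923000-92923149, plus strand: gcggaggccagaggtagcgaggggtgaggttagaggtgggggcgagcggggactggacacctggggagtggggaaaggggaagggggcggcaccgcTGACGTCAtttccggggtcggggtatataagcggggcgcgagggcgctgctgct
PCSK1, chr5:96433249-96433398, minus strand: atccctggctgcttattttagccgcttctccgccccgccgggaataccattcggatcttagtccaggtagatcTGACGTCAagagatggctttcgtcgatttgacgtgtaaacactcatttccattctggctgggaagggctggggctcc
VGF, chr7:101165570-101165719, minus strand: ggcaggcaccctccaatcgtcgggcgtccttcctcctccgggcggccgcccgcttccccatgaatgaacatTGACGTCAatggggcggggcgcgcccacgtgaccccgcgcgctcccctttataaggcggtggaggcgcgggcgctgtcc
The same element thus stood before genes at very different H3K27ac levels, with 369 normalized counts per kb at CHGA, 288 at PCSK1 and 38.97 at VGF. Promoters rich in CG pairs (at least 55% G and C, with an observed over expected CG ratio of at least 0.65) were 23 of the 45, or 51.1%, and 41.9% of all promoters. A TATA box, TATAAA on either strand, was found in 4 of 45 and in 11.5% of all, and the E-box CAGCTG in 11 of 45 and in 17.9% of all.

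The CTCF core motif, a 12-base consensus searched on both strands with at most 1 mismatch, was present in the promoter CTCF peak of 6 of the 23 members that had one (26.1%), in 37.0% of the 9366 promoter CTCF peaks of all genes, and in 47.2% of the 51457 CTCF peaks. The study's methods filtered CTCF peaks by another search for the CTCF motif, with FIMO. A peak without a match here may therefore hold the motif by that search. For each peak, 1 match is shown in hg38, with the core in capitals and 6 flanking bases on either side. It is the one with the fewest mismatches and then the nearest to the middle of the peak. The RPH3AL peak held 2 matches. The bases are read on the strand of the motif.
PTPRN, chr2:219298863-219298886, minus strand: ttctcaCCAGCAGATGGCgtaggt
RPH3AL, chr17:386228-386251, minus strand: gttttgCCGCCAGAGGGCagcgag
CADPS, chr3:62873769-62873792, plus strand: ggcgagCCAGAAGGTGGCggcgaa
CPLX2, chr5:175873210-175873233, minus strand: tgaggtCCAGCAGGTTGCcggcag
CADPS2, chr7:122886933-122886956, plus strand: ttttctCCAGCAGGTGGAggtgga
RAB3A, chr19:18202890-18202913, plus strand: gtgcccCCAGCAGAGGGCagcctg
PTPRN and RAB3A matched the consensus without a mismatch and the others with 1. The RPH3AL match shown lay 7 bp from a start site, whereas that of PTPRN lay 2534 bp away. In PTPRN and RPH3AL the core shown was on the strand of the gene, and in CADPS, CPLX2, CADPS2 and RAB3A on the opposite strand. In the other 17 promoter CTCF peaks, RAB27A and SYT7 among the stronger ones, these letters were not found.

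H3K27ac was listed at the start sites of nearly all members. A peak was found for 37 of the 39 genes (94.9%), and for 66.4% of all protein-coding genes. The members' median was 255 normalized counts per kb, and that of the 13059 genes with a peak was 184. Of the 37 members, 23 lay above the median of all genes, 17 in the top 25% and 12 in the top 10%, while 5 lay in the lowest 25% and 3 in the lowest 10%. This difference depended on which start site was read. Members had a median of 4 start sites and all genes 3, and at the canonical start site alone the median was 196 for members and 182 for all genes, with 21 members above the latter. For 5 members, CPLX1, CPLX2, PAM, RAB27A and RIMBP2, the highest peak was at another start site than the canonical one.

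**Figure D1:**
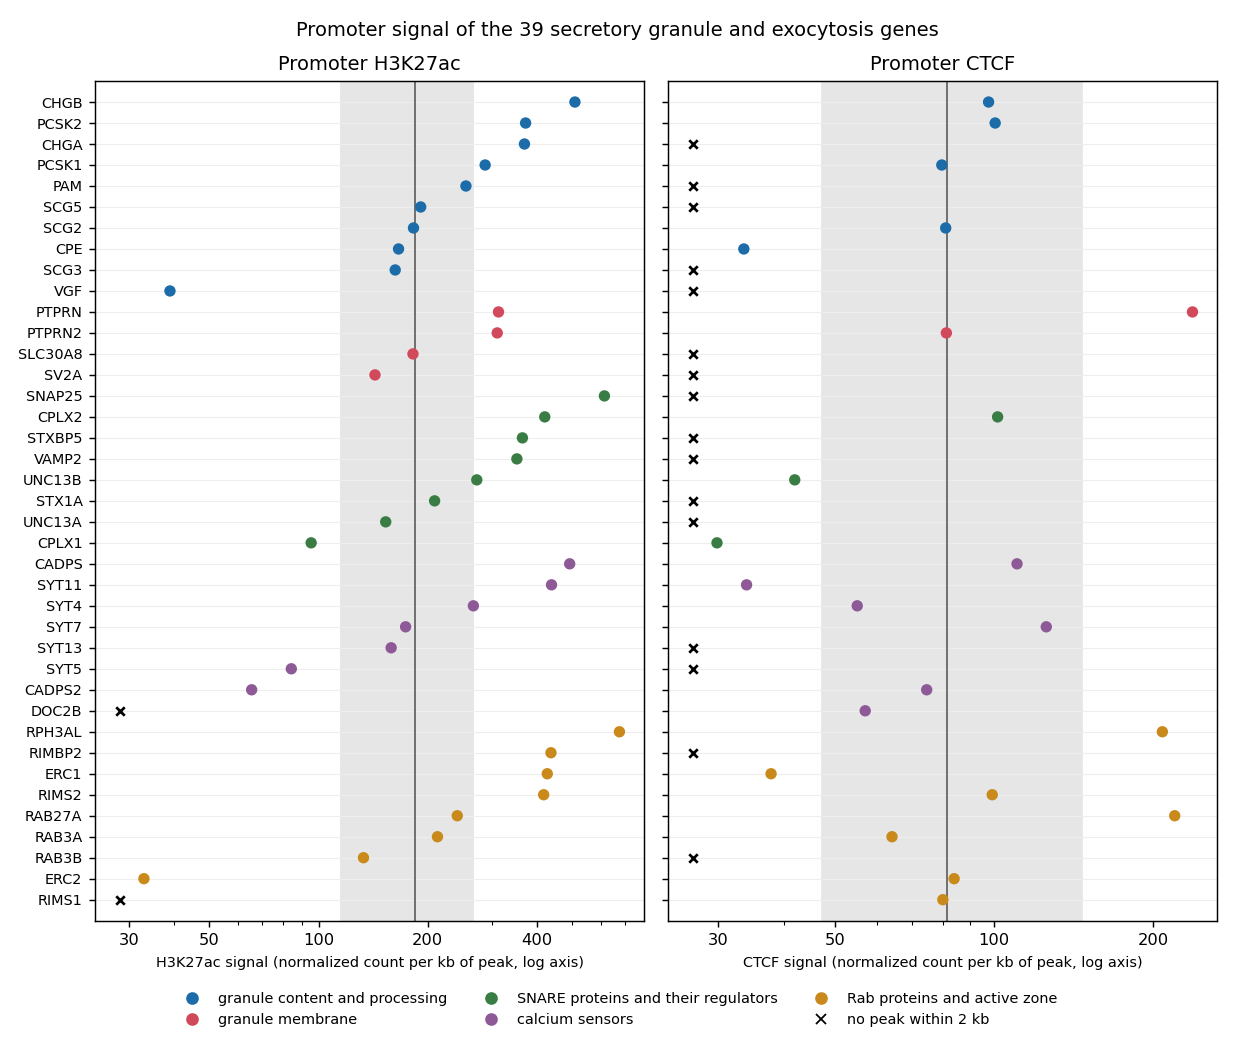
Promoter H3K27ac (left) and CTCF (right) of the 39 members, each point the authors' mean over 6 libraries in normalized counts per kb of peak on a log axis, coloured by role, with the grey band spanning the interquartile range of all genes with a peak, the line their median and crosses the genes with no peak within 2 kb of a start site. Members lie between 33.0 and 674 for H3K27ac, with RIMS1 and DOC2B without a peak, and between 29.8 and 238 for CTCF, with 16 members without a peak.

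The highest signal belonged to RPH3AL, which encodes a Rab effector of secretory granules. Its peak at chr17:347231-355832 had a mean of 5801 normalized counts, or 674 per kb. Next was SNAP25, a plasma membrane SNARE protein, with 613 per kb over a peak of 5.52 kb at chr20:10216410-10221933. CHGB, a granin of the granule core, followed with 509 per kb. Among all genes with a peak, these 3 stood at percentiles 99.6, 99.2 and 97.7. CADPS, which primes dense-core vesicles for release, had 492 per kb at chr3:62870953-62878645. SYT11, a synaptotagmin-family protein, had 438 per kb in a peak that also covered the start of GON4L. The scaffold gene RIMBP2, whose product ties RIM proteins to calcium channels, had 437 per kb and the largest mean count of all members, 12061. At its canonical start site the peak had 196 per kb, from a mean of 1467. ERC1, an active zone scaffold, had 427 per kb in a peak shared with the start of RAD52, so that reads of both promoters entered the value. CPLX2 (complexin, a clamp on the SNARE complex) had 420.0 per kb, RIMS2 (a Rab3-binding scaffold) 417 per kb, and PCSK2 (prohormone convertase 2) 372 per kb. Among these highest members were genes of all roles but the granule membrane, where PTPRN had 313 per kb and PTPRN2 311.

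The lowest signals spanned several roles too. ERC2, the close relative of ERC1, had a peak of 500 bp with a mean of 16.5 normalized counts, or 33.0 per kb, and that peak lay 458 bp from the start site without covering it. VGF, a granin-like cargo, had 38.97 per kb, lower than all but 1.72% of genes with a peak. CADPS2, the paralog of CADPS, had 65.4 per kb. ERC1 was 12.9-fold over ERC2 and CADPS 7.52-fold over CADPS2. SYT5 had 84.1 per kb and CPLX1 95.4 per kb. The CPLX1 peak also covered no start site, lying 690 bp from one, and an enhancer of each list overlapped it. CPLX2 was 4.40-fold over CPLX1, both read at other start sites than the canonical ones, where the order was the opposite, with 53.6 per kb for CPLX2 and 80.8 for CPLX1. RIMS1 and DOC2B had no H3K27ac peak within 2 kb of a start site, of which they have 12 and 1, although RIMS2, the relative of RIMS1, stood among the 10 highest.

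By role, the median H3K27ac signal per kb was 329 for the Rab proteins and active zone (8 of 9 genes with a peak, range 33.0 to 674) and 312 for SNARE proteins and their regulators (8 of 8, 95.4 to 613). It was 246 for the granule membrane (4 of 4), 223 for granule content and processing (10 of 10) and 174 for calcium sensors (7 of 8), the last just under the all-gene median. Within granule content and processing, CHGA had 369 per kb and PCSK1 288, PAM (which amidates peptides) 255, SCG5 (a chaperone of PCSK2) 191, SCG2 183, CPE (carboxypeptidase E) 166 and SCG3 163. Among the SNARE genes, STXBP5 (tomosyn) had 364, VAMP2 352, UNC13B 273, STX1A 209 and UNC13A 153 per kb. Among the synaptotagmins, SYT4 had 267, SYT7 174 and SYT13 158 per kb. RAB27A had 241 in a peak that also covered the starts of PIGB and PIGBOS1, RAB3A 213 and RAB3B 133 per kb, and the granule membrane genes SLC30A8 (the zinc transporter ZnT8) and SV2A had 182 and 143.

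Dividing by width hid how broad some of these peaks were. The members' promoter H3K27ac peaks had a median width of 4972 bp, and those of all genes 2976 bp. Peaks of at least 10 kb were found at 8 of the 37 members, or 21.6%, and at 4.46% of all genes with a peak. At the canonical start site alone, 7 members and 3.75% of all genes had one. The widest covered 49.3 kb at SLC30A8 (chr8:117132043-117181363) with a mean of 8978 normalized counts, although its signal per kb was near the median of all genes. RIMBP2 had a peak of 27.6 kb, CHGA 26.6 kb, STX1A 23.7 kb, VAMP2 15.9 kb, SYT7 14.3 kb, CPE 13.97 kb and PTPRN2 11.2 kb. The peak of CHGA was 2.19 times as long as the gene, which spans 12.1 kb. The VAMP2 peak also covered the start of PER1, a clock gene, and is shared with it. For comparison, 10 of the 14 beta cell markers had a promoter peak of at least 10 kb, SLC30A8 being in both lists.

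**Figure D2:**
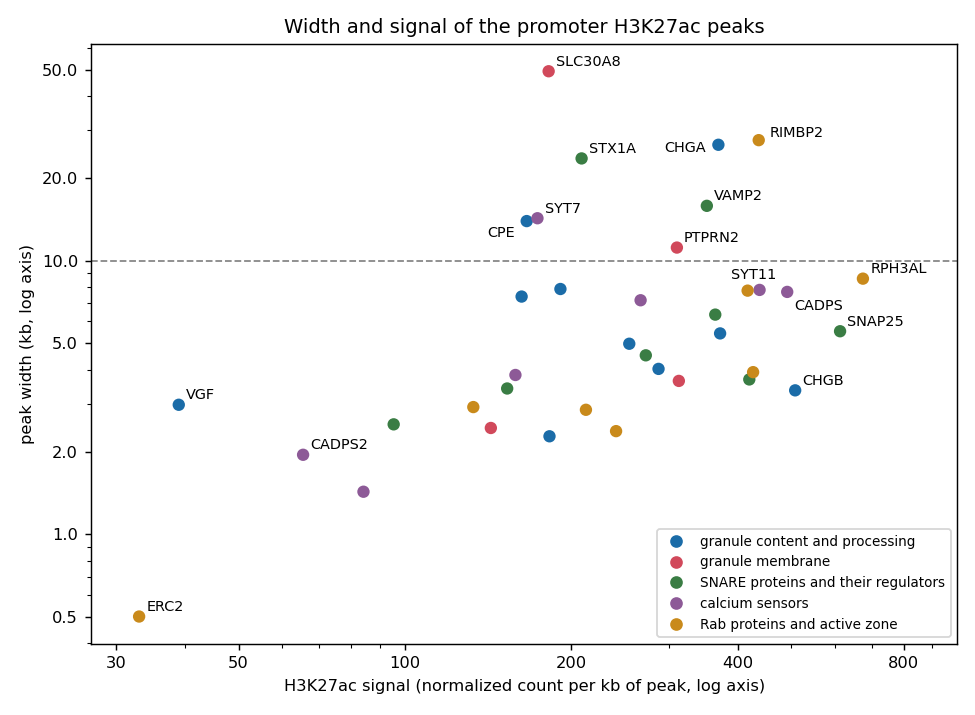
Width of each member's promoter H3K27ac peak in kb against its signal in normalized counts per kb, both on log axes, coloured by role, with the dashed line at 10 kb and names for the broadest, highest and lowest. The 8 members over the line run from 11.2 kb (PTPRN2) to 49.3 kb (SLC30A8), and RPH3AL, the highest per kb, lies under it.

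CTCF at the start sites was less common, and at levels like those of other genes. A peak was found at 23 of the 39 members (59.0%) and at 47.6% of all genes. It covered a start site in 13 of the 23 and lay within 2 kb of one in the other 10. Among all genes with a CTCF peak, it covered a start site in 55.9%. The members' median was 80.9 normalized counts per kb and that of all genes 81.3, with 10 members above it. Among members with H3K27ac, 21 of 37 had CTCF as well (56.8%), and among all genes with H3K27ac 59.7% did. RIMS1 and DOC2B, the members without H3K27ac, both had a CTCF peak at a start site, with 79.9 and 57.0 per kb. Of all genes without H3K27ac, 23.8% had one.

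PTPRN, which encodes the granule membrane protein IA-2, had the highest promoter CTCF signal, 238 per kb with a mean of 458 normalized counts at chr2:219297658-219299583. That peak covered no start site, the nearest being 1317 bp away. RAB27A, a Rab protein of granule docking, followed with 219.9 per kb, and RPH3AL had 208. Those of PTPRN and RAB27A lay in the top 10% of all genes with a CTCF peak. SYT7, a calcium sensor of granule fusion, had 126 per kb and CADPS 110.5. CPLX2 had 102, PCSK2 100.4, RIMS2 99.2, CHGB 97.6 and ERC2 84.0 per kb. ERC2 thus held a CTCF peak near the median of all genes beside the lowest H3K27ac of the members. At the other end, CPE had 33.5 per kb and CPLX1 29.8 per kb, the latter from a mean of only 9.61 normalized counts. The promoter CTCF peak overlapped the highest promoter H3K27ac peak in 16 of the 21 members with both, and another H3K27ac peak at a start site of the gene in CPLX2, RAB27A and RPH3AL. In RPH3AL that other peak was one of 689 normalized counts per kb, with a lower mean count than the peak chosen. In PTPRN and ERC2 the CTCF peak overlapped no promoter H3K27ac peak of the gene. The same overlaps were not counted over all genes, so that nothing particular to the members is read from them.

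The 16 members without a CTCF peak at a start site were CHGA, SCG3, SCG5, PAM and VGF among the cargo genes, SLC30A8 and SV2A of the granule membrane, SNAP25, STX1A, STXBP5, VAMP2 and UNC13A of the SNARE group, SYT5 and SYT13, and RAB3B and RIMBP2. They included some of the highest H3K27ac signals, SNAP25 and RIMBP2, and 5 of the 8 broadest peaks, SLC30A8, RIMBP2, CHGA, STX1A and VAMP2. How many broad peaks of all genes lack CTCF was not counted.

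Enhancers, unlike the promoter values, are given separately for senescent and non-senescent cells. The authors' 2 lists hold 14886 regions in non-senescent and 13076 in senescent cells, which the study's methods define by overlapping H3K4me1 and H3K27ac outside promoters. Nevertheless, 538 and 513 of them covered a start site used here, among them 3 in each list at members, 1 at ERC1 and the others at RPH3AL. The lists carry positions only. A region missing from one list may have fallen short of the calling threshold there, no replicate check was possible, and the counts below are therefore descriptions. A region counted as shared when it overlapped a region of the other list by at least 1 bp.

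At least 1 listed enhancer was assigned to 27 of the 39 members (69.2%), and to 35.5% of all genes. The members are long genes, with a median length of 82.7 kb against 27.5 kb for all genes, and an enhancer was listed more often for long genes. Among genes of at least 82.7 kb, 17 of 20 members and 64.8% of all genes had a listed enhancer. Among shorter genes it was 10 of 19 members and 26.98% of all genes. A total of 9 members had 5 or more enhancers in either list (23.1%), as did 3.38% of all genes. The 12 without any were VGF, STX1A, VAMP2, SYT4, SYT5, SYT11, RAB3A, RAB27A, RIMS1, UNC13A, DOC2B and SV2A. STX1A and VAMP2 were also among the 8 members with a promoter peak of at least 10 kb.

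The members' enhancers were mostly listed in both states. Of 115 regions in the non-senescent list, 90 were shared and 25 were not (21.7%), and of all regions in that list 29.4% were not. In the senescent list, members had 110 regions, of which 90 were shared and 20 were not (18.2%), with 20.5% for the whole list. Regions found in one list alone were shorter. Among members, the median width was 3506 bp for shared and 1659 bp for unshared regions of the non-senescent list, and 4053 bp and 1354 bp in the senescent list. The H3K27ac peak over them had a median of 134 normalized counts per kb for shared regions, 71.3 for those of the non-senescent list alone and 56.8 for those of the senescent list alone. In the lists as a whole, the medians were 117 per kb for shared regions and 66.6 and 66.9 for the others. These values are means over the libraries of both states, so that a region called in one state is averaged with libraries in which it was not called.

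Summed over members, listed enhancers covered 473 kb in non-senescent and 528 kb in senescent cells, a ratio of 1.12, whereas the whole lists covered 41940 kb and 41011 kb, a ratio of 0.978. Much of the larger total came from PTPRN2 and RIMBP2, without which the ratio was 1.03. Of the 27 members with an enhancer, 13 had more listed length in senescent cells (48.1%) and 14 had less, and 50.8% of all genes with an enhancer had more. Of 85 members' regions that matched a single region of the other list, 54 were longer in the senescent list (63.5%), as were 57.1% of such regions over all genes.

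**Figure D3:**
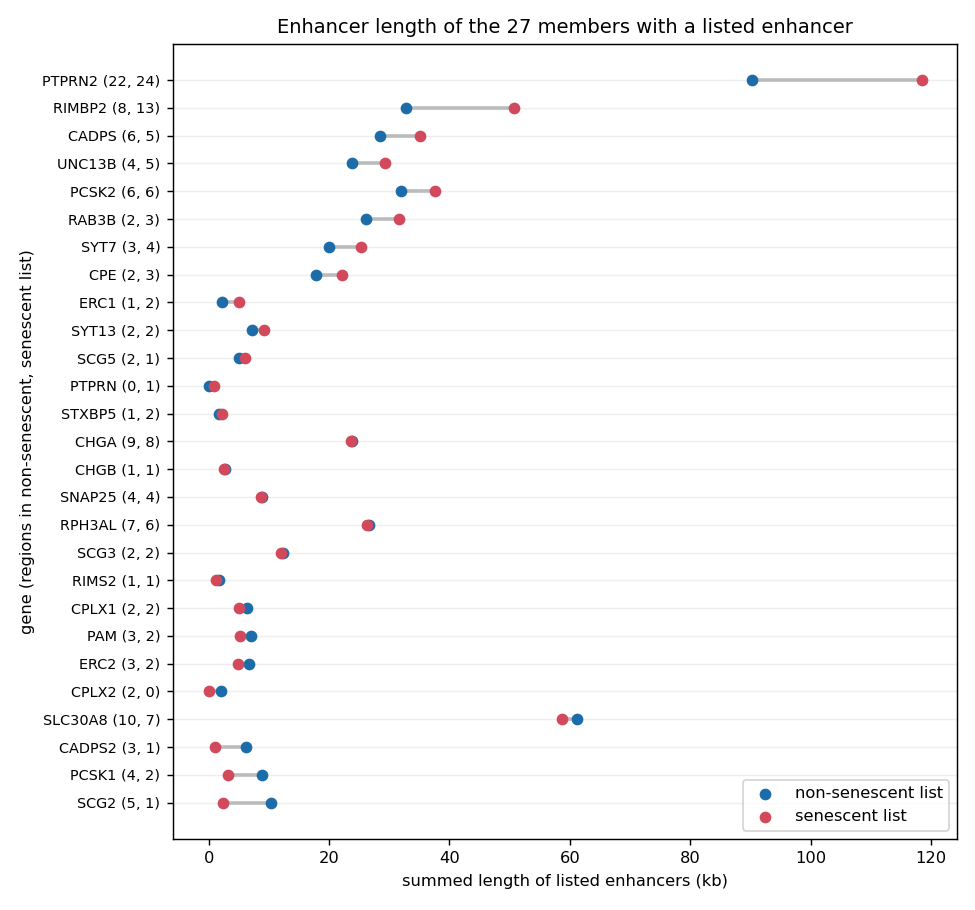
Summed length in kb of the enhancers listed for each of the 27 members with any, in non-senescent (blue) and senescent cells (red), ordered by the difference, with the number of regions in each list in parentheses. PTPRN2 and RIMBP2 stand at the top, with 28.2 kb and 17.8 kb more in the senescent list, and SCG2 at the bottom with 10.4 kb in the non-senescent and 2.39 kb in the senescent list.

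PTPRN2, which encodes the granule membrane protein phogrin and spans 1049 kb, held the most enhancers, 22 in non-senescent and 24 in senescent cells, all of them in the gene. Of these, 20 were shared, 2 were in the non-senescent and 4 in the senescent list alone, and the covered length was 90.3 kb and 118 kb. RIMBP2 had 8 regions in non-senescent cells, each of them shared, and 13 in senescent cells, 5 of which were in that list alone. All 5 were intronic and between 500 and 2026 bp wide, at 39.3 to 57.7 normalized H3K27ac counts per kb, low among the members' enhancers. Its covered length was 32.9 kb and 50.7 kb. RIMBP2 thus had both the largest promoter count, read at another start site than the canonical one, and the most regions that appeared in the senescent list alone.

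SLC30A8 had 10 regions in non-senescent and 7 in senescent cells. The 7 were shared, and 3 were in the non-senescent list alone. They covered 61.1 kb and 58.7 kb. CHGA had 9 and 8, again with every region of the senescent list shared, and 23.8 kb and 23.7 kb. None of the CHGA regions lay in CHGA itself, and each one downstream of it lay in an exon or intron of another gene. RPH3AL had 7 and 6, with 26.7 kb and 26.3 kb. These 3 genes together had 5 regions fewer in the senescent list at nearly the same length. PCSK2 had 6 regions in each list, all shared, with 32.0 kb and 37.6 kb. CADPS had 6 and 5, with 28.4 kb and 35.1 kb, the longest being 18.0 kb in the senescent list. UNC13B, a priming factor for fusion, had 4 and 5, with 23.7 kb and 29.3 kb. SNAP25 had 4 in each list, 3 of them shared, with 8.95 kb and 8.63 kb. RAB3B had only 2 and 3 regions, yet they covered 26.2 kb and 31.6 kb, since 1 of them was 27.7 kb long in the senescent list.

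The senescent list held fewer regions at 11 of the 27 members with an enhancer, more at 9 and as many at 7. Of the 6980 genes with an enhancer, it held fewer at 2379, more at 1479 and as many at 3122. The 11 were CHGA, SCG2, SCG5, PCSK1 and PAM of granule content and processing, and SLC30A8, CPLX2, CADPS, CADPS2, RPH3AL and ERC2 of other roles. Within granule content and processing, CPE had more regions in the senescent list, and PCSK2, CHGB and SCG3 had as many. SCG2, which encodes secretogranin II, had 5 regions in non-senescent and 1 in senescent cells. The 4 that were missing, at chr2:223538759-223539923, chr2:223544636-223547036, chr2:223585576-223587040 and chr2:223632237-223634866, were all intergenic, 15.2 to 62.4 kb from the nearest start site of the gene, and carried 71.3 to 93.6 normalized H3K27ac counts per kb. PCSK1, prohormone convertase 1/3, had 4 regions and 2, with 8.94 kb and 3.17 kb. The missing ones lay at chr5:96381584-96382486, over a CTCF peak, and at chr5:96459299-96462331, which is 25.2 kb upstream of a start site. CADPS2 had 3 intronic regions in non-senescent and 1 in senescent cells, none of them shared, with 6.17 kb and 1.10 kb. PAM went from 3 to 2 and SCG5 from 2 to 1, the latter with more covered length, 5.02 kb and 5.97 kb.

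**Figure D4:**
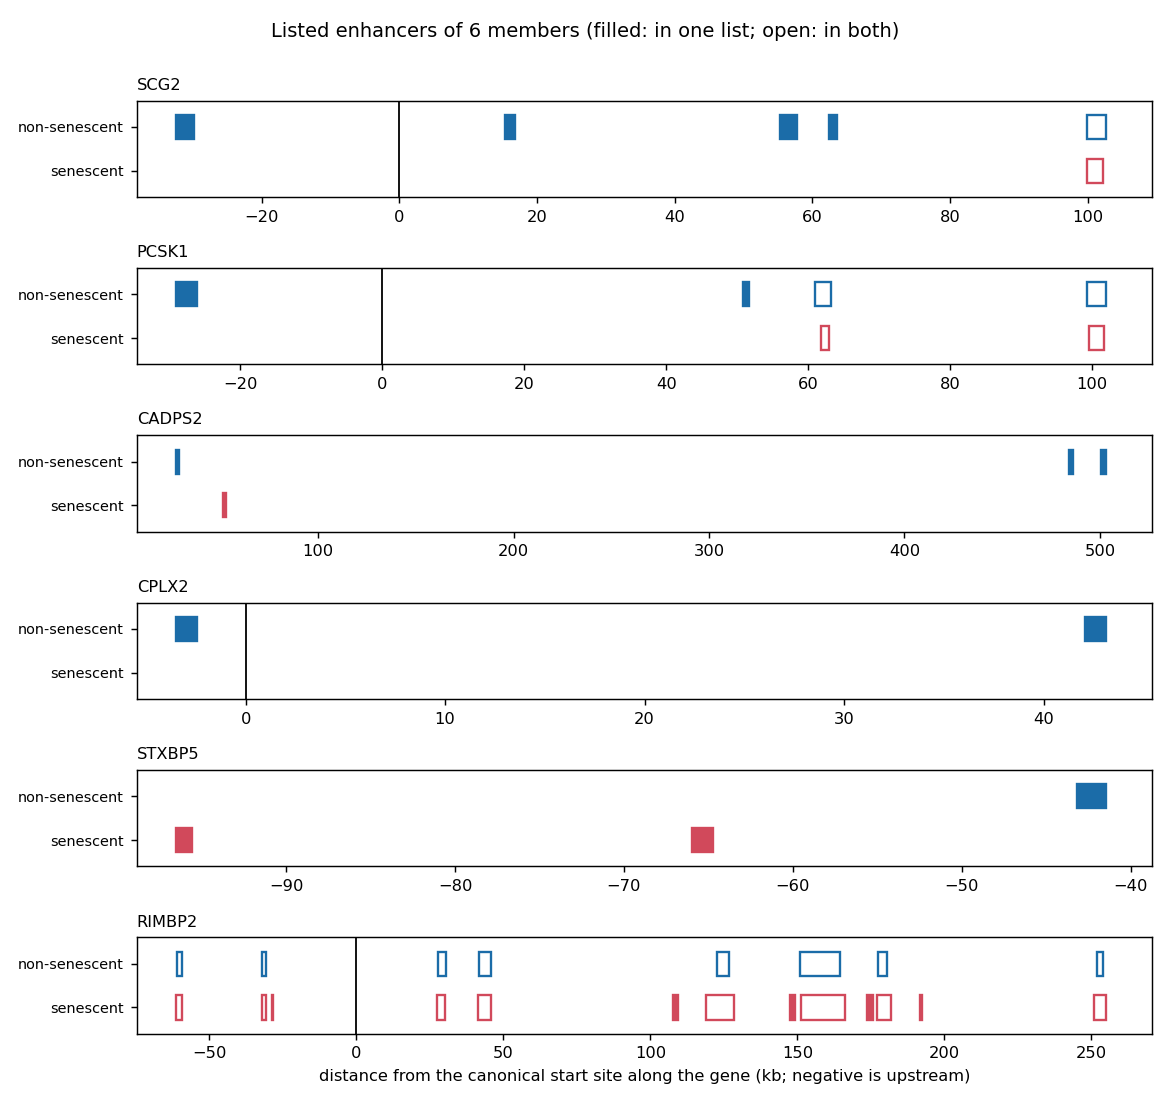
Enhancers listed for SCG2, PCSK1, CADPS2, CPLX2, STXBP5 and RIMBP2, placed by distance in kb from the canonical start site along the gene (negative is upstream), with non-senescent cells above and senescent cells below, filled where in one list alone and open where shared. SCG2 has 4 filled bars in the upper row and none in the lower, RIMBP2 has 5 in the lower row and none in the upper, and CADPS2 and STXBP5 have no shared region.

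All listed enhancers were of one state at 2 of the 27 members (7.41%), and at 25.4% of all genes with an enhancer. A gene with many regions has more occasions for a shared one, and 5 or more were listed for 23.1% of members and 3.38% of all genes. The shares of one state were not matched for number of regions or gene length. CPLX2 had 2 in non-senescent cells, at chr5:175868075-175869158 and chr5:175913658-175914701, and none in senescent cells. The first, intronic and 2.42 kb from a start site, overlapped a CTCF peak. PTPRN had none in the non-senescent list and 1 in the senescent list, at chr2:219299025-219299958, exonic and 934 bp wide, with 54.0 normalized H3K27ac counts per kb. It overlapped the PTPRN promoter CTCF peak, the highest of the members, though not the core motif in it. STXBP5 had 1 region in non-senescent and 2 in senescent cells, none shared and all intergenic, 41.5 kb, 64.7 kb and 95.6 kb upstream of the gene.

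The other members had few regions. SYT7 had 3 and 4, with 19.9 kb and 25.3 kb, and the 1 in the senescent list alone, 5.12 kb wide at chr11:61607650-61612768, had 241 normalized H3K27ac counts per kb, the highest of any unshared member region. CPE had 2 and 3, with 17.8 kb and 22.1 kb, SYT13 2 and 2, with 7.21 kb and 9.26 kb, and SCG3 2 and 2, with 12.4 kb and 12.0 kb. CPLX1 had 2 and 2, with 6.33 kb and 4.995 kb, and ERC2 3 and 2, with 6.77 kb and 4.82 kb, all of them nearest to WNT5A although in the ERC2 gene. ERC1 had 1 and 2, with 2.20 kb and 5.07 kb, CHGB 1 and 1, with 2.80 kb and 2.49 kb, and RIMS2 1 and 1, with 1.81 kb and 1.19 kb.

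By role, the counts were small and differences between roles were not tested. Granule content and processing genes had 34 regions in non-senescent and 26 in senescent cells, 9 in the former list alone (26.5%, and 29.4% for the whole list) and 1 in the latter alone (3.85%, and 20.5% for the whole list). Rab and active zone genes had 22 and 27, with 3 (13.6%) and 8 (29.6%) in one list alone. For the granule membrane the counts were 32 and 32, with 5 and 5 alone, for SNARE genes 13 and 13, with 4 and 4 alone, and for calcium sensors 14 and 12, with 4 and 2 alone. Covered length in senescent over non-senescent cells was 0.953 for granule content and processing, 1.05 for SNARE genes, 1.15 for calcium sensors, 1.18 for the granule membrane and 1.24 for Rab and active zone genes. RIMBP2 alone gave 5 of the 8 regions in the last role, and SCG2 and PCSK1 gave 6 of the 9 in the first.

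**Figure D5:**
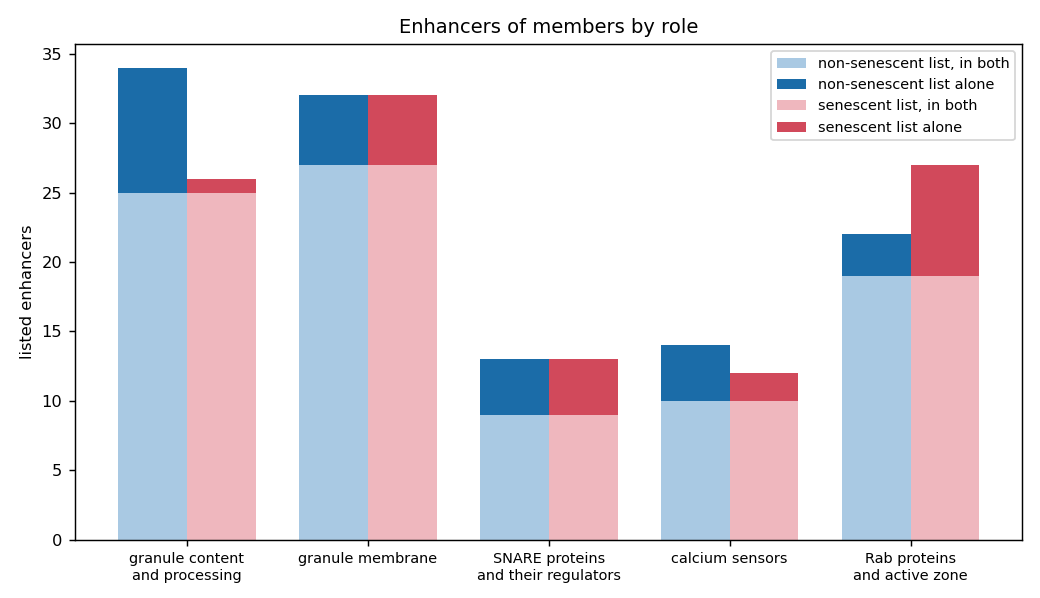
Number of listed enhancers per role in non-senescent (left bar) and senescent cells (right bar), pale for regions in both lists and dark for those in one. Granule content and processing genes have 9 dark regions in the left bar and 1 in the right, and Rab and active zone genes 3 and 8.

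The members' enhancers lay mostly in introns, 62.6% in the non-senescent list and 65.5% in the senescent list, and 41.8% and 41.9% of all listed enhancers did. Being in the gene was itself a ground for assignment, and of the regions assigned in the same way to all genes of at least 82.7 kb, 68.8% and 68.04% were intronic. A CTCF peak overlapped 27.8% and 30% of the members' regions, and 24.2% and 25.5% of all, and in members it did so for 28 of the 90 shared and 4 of the 25 unshared regions of the non-senescent list, and for 29 of 90 and 4 of 20 of the senescent list. Over all genes it did so for 26.8% of shared and 17.98% of unshared regions of the non-senescent list, and for 27.3% and 18.6% of the senescent list. An Rb region overlapped 0 of the members' regions, and 0.376% and 0.398% of the whole lists.

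Rb, which binds and silences cell-cycle promoters through E2F factors, was mapped by a list of 2435 regions found in senescent over non-senescent cells. The study's methods called these by a p-value cutoff without adjustment for multiple testing, with non-senescent samples as the control. The list holds positions only, from 2 Rb libraries per state, and no region could be checked between replicates. The regions below are therefore listed places, not established binding sites. Of the whole list, 20.9% lay in a gene. A region in the gene or within 100 kb of a start site was found for 7 members (17.9%) and for 8.37% of all genes. Of the 7, 5 were genes of at least 82.7 kb. Among genes of that length, 5 of 20 members and 10.8% of all genes had such a region. Of the 19 shorter members, 2 had one. CADPS, ERC1, RIMS1 and STXBP5 each had 1 in an intron, 18.0, 5.08, 39.6 and 86.2 kb from the nearest start site. SYT4 had 1 at 24.6 kb outside the gene, and DOC2B had 2 at 55.4 kb and 56.7 kb. None of these 7 regions overlapped an H3K27ac peak, a CTCF peak or an enhancer.

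PCSK2 was the exception, and the only one of the 39 members with an Rb region within 2 kb of a start site. Of the 19663 protein-coding genes, 308 had one there. The region, chr20:17226903-17227124, was 222 bp wide, covered a start site and exonic sequence, and lay within both the promoter H3K27ac peak and the promoter CTCF peak of the gene. Its GC content was 64.9%, as against a median of 32.8% over the members' 8 regions and 38.3% over the list. The bases of the region that precede the exon are shown with the intronic regions of CADPS and STXBP5, all in hg38 on the strand of the gene and with nothing in capitals, to set the promoter region beside the others.
PCSK2, chr20:17226903-17227039, plus strand: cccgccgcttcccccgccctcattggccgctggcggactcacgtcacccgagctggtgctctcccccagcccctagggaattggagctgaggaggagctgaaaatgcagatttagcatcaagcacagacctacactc
CADPS, chr3:62856887-62857008, minus strand: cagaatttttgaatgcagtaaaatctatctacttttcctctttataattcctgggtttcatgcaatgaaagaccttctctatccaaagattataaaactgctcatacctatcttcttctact
STXBP5, chr6:147290738-147290868, plus strand: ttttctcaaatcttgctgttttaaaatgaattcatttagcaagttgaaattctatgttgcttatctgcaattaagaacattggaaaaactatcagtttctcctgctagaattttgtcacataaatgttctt
The E2F motif, searched as TTTCGCGC and TTTGGCGC on both strands, was in 0 of the 8 members' regions and in 0.493% of the whole list, 12 of 2435.

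Other genes of granule biogenesis and regulated exocytosis, a list of 88 that are no members (syntaxin-binding proteins, further synaptotagmins and synaptotagmin-like proteins, exocyst subunits and others), were read in the same way. An H3K27ac peak at a start site was found for 59 (67.0%), with a median of 201 normalized counts per kb, a CTCF peak for 49 (55.7%), with a median of 59.5, and a listed enhancer for 40 (45.5%). Peaks of at least 10 kb were found at 2 of them. They had 69 enhancer regions in non-senescent and 52 in senescent cells, and 65.2% of the former were shared. Their listed length in senescent over non-senescent cells was 0.717, where that of the members was 1.12 and that of the whole lists 0.978.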

How the data were processed

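ChIP-seq peaks of H3K27ac and CTCF, enhancer lists and an Rb list from EndoC-βH3 cells were used. The authors' methods name Trim Galore for trimming, Bowtie2 for alignment to hg38, removal of duplicates, HOMER for peaks of the histone marks, MACS2 for CTCF and Rb, and DESeq2 on reads counted in peaks. The authors' methods also filtered CTCF peaks for the CTCF motif with FIMO. Versions are not given in the sources used here. The deposited signal is the authors' mean over 6 libraries of counts divided by size factors, a single pooled column. The other 5 value columns of each table hold the authors' own comparison of states (fold change, its error, statistic, p-value and adjusted p-value) and were not used. The deposited region lists hold no other values than positions.

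Samples were grouped by antibody and treatment from the labels, and depth per library is not given by the tables. Of the files' 24 chromosome names, 24 are in hg38, with 0 regions past a chromosome's end. File starts were read as 0-based and are printed 1-based. Start sites were those of protein-coding transcripts in GENCODE 44. Overlaps needed 1 bp, nearest genes were taken from a region's edge, and the steps were tested on simulated regions. No test was possible, as no value per library was at hand, so levels are described beside all genes. Described in full were the 10 highest and 5 lowest members for H3K27ac, the 10 highest for CTCF, those without a peak, the 10 with most enhancers, those with enhancers of one state, and those with an Rb region. The members and lists were chosen with earlier results of these data known. Python 3.11.15, pandas 2.3.3, numpy 2.4.6 and pysam 0.24.0 were used. The alternatives tried were other windows, start sites, count minimums, motif filters and ways of assigning enhancers.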

Additional observations from a re-analysis of the deposited data

How the results depend on the processing

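Of 34 alternative settings over 9 results, 29 left the value within 1.5 times the reported one (for medians, within the 95% binomial interval of the median over members), and 5 did not. The number of members with a CTCF peak at a start site was 23, and was 15 with a mean of at least 50 normalized counts and 7 with peaks that hold the CTCF core motif. The median promoter H3K27ac signal was 1546 normalized counts when not divided by length, a different unit. Enhancers listed only in non-senescent cells were 25, and 14 when only those overlapping the gene counted, which leaves out the intergenic regions of SCG2 and PCSK1. Members with an Rb region were 7, and 1 within 2 kb of a start site. The enhancer length ratio was 1.07 to 1.17 under the other ways of assignment. Leaving out single replicates could not be run, since the tables hold means over libraries. No paired analysis was possible because no value per library was at hand and no result comes from a test. Depth per library is not given by the tables.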
